A study of Rattus norvegicus with 24 samples.

Results

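The Fos and Jun genes encode the core subunits of AP-1, a dimeric transcription factor. Of the 32754 gene rows in the count table, 6 were chosen by gene ID and followed here: Fos (ENSRNOG00000008015), Fosb (ENSRNOG00000046667), Fosl1 (ENSRNOG00000020552), Jun (ENSRNOG00000026293), Junb (ENSRNOG00000042838) and Jund (ENSRNOG00000019568). All 6 were present and passed the filter on low counts, which 15908 genes passed. The libraries came from primary rat cortical cells in culture, in a study of excitotoxicity, in which too much glutamate injures neurons. After 8 days of culture the cells were given new growth medium (called medium below) or medium with 250 μM glutamate, and the wells were imaged for 4 h. Each condition was combined with DMSO, the solvent control, or with 1 of 3 agents. They bear the codes IS141, AH609 and AH236, and their dose, timing and structure are not in the labels. That makes 8 groups of 3 libraries: DMSO, IS141, AH609 and AH236 in medium, and the same 4 treatments in glutamate. The labels give no strain, age or sex, do not say when RNA was taken, and do not say whether the 3 libraries of a group came from different cultures. The p-values therefore reflect library-to-library spread alone, part of which can be technical.

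Fos proteins do not pair with each other and bind DNA as heterodimers with a Jun protein, while Jun proteins can also pair among themselves. Both families share a basic region that contacts DNA and a leucine zipper that holds the dimer together. Fos, Fosb and Junb are classical immediate early genes: in neurons, calcium entry through glutamate receptors and voltage-gated channels switches them on within minutes through factors such as CREB and SRF, with no need for new protein. Jun is both an immediate early gene and the target of the JNK kinases, and is known for its part in neuronal stress and death. Jund is known for a high resting level, and Fosl1 is known as a later member of the family that AP-1 itself can raise.

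The sequences just before 3 of these genes are shown because the windows hold letters that an activity-dependent factor can bind. All 6 members rose in glutamate, so the rise does not set these 3 apart. A link between the letters and the rise was not tested. They are the 250 bases before the annotated start in RefSeq (build GRCr8), each on its gene's strand, 5′ to 3′. Fosl1 lies on chromosome 1 (chr1:212183635-212183884, plus strand), Junb on chromosome 19 (chr19:40080876-40081125, plus strand) and Jund on chromosome 16 (chr16:18769772-18770021, minus strand). The authors' counts rest on another build, Rnor_6.0, for which no gene coordinates were used. Capitals mark TGACG or its reverse complement CGTCA, the core of the cAMP response element that CREB binds, and in Jund the full element TGACGTCA, which contains the core on both strands.
Fosl1: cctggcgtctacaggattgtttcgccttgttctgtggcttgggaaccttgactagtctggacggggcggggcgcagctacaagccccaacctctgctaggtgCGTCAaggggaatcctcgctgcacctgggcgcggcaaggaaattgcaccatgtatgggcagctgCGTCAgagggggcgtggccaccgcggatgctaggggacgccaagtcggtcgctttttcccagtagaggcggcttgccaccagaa
Junb: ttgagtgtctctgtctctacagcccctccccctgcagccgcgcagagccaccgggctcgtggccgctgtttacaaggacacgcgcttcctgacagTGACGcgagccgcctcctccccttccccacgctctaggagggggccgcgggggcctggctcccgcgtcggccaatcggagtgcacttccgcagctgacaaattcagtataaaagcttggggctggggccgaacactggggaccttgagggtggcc
Jund: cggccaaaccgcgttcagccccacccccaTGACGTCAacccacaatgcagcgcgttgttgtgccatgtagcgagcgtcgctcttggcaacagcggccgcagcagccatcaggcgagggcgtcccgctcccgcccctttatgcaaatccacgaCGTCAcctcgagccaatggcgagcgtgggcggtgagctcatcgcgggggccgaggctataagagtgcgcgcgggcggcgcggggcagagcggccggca

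Jund held the full element TGACGTCA 221 bases before its start and a separate core 98 bases before it. Junb held 1 core at 155 bases, and Fosl1 held 2, at 148 and 84 bases. Windows of 300 bases (250 before and 50 after the start) were searched on both strands for 33469 genes. The full element was in 1.83% of them and the core, counted also within the full element, in 21.2%. The AP-1 site TGACTCA, found in 4.63% of all windows, and the CArG box that SRF binds, found in 1.64%, were in none of the 4 windows whose symbol matched a member. The 4th is that of Fosb, which held none of these motifs and starts inside the outermost span of the gene, so it is not printed. No window carried the symbol of Fos or Jun, so the bases before those genes were not searched. A match describes letters only, and a missing match says nothing of a factor.

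Library totals ran from 22509400 to 35496447 counts. The lowest count of any member in any library was 51, for Fosb in DMSO medium replicate 2. The DMSO library in medium whose title carries no number, called DMSO medium replicate 1, stood apart from the others on the second principal component of all genes (score -48.0, against -12.8 to 19.7 for the other 23). Its Fos and Fosb counts also stood apart from those of its group, so most results for these genes are also given without it. Values with no second figure include it. Leaving it out keeps 2 DMSO libraries in medium, and the choice rested partly on the Fos and Fosb values themselves. It lowers the DMSO level of these genes in medium and narrows their spread, so p-values without it are not an independent test. In bulk RNA, a change in the share of cells of a type and a change in RNA per cell cannot be told apart. The labelled cell type could not be checked against markers, because no table used here pairs other gene IDs with symbols.

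All 6 members rose with glutamate in every treatment. In DMSO cultures 6 of 6 were called higher, where 28.6% of all genes tested were, and all 6 rose at least 2-fold, which 7.97% of all genes did. Leaving out DMSO medium replicate 1 kept all 6 calls. A call means an adjusted p under 0.05 in edgeR's quasi-likelihood test, with Benjamini-Hochberg adjustment over all genes tested. The same 6 of 6 were called higher and at least 2-fold raised in IS141 cultures (28.9% and 8.06% of all genes), AH609 cultures (30.1% and 9.35%), AH236 cultures (29.5% and 9.18%) and over all 4 treatments (38.8% and 8.61%). The median log2 fold change of the 6 members over all 4 treatments was 3.75, and that of all genes tested was 0.00. Among DMSO libraries the 6 genes together made up 0.0284% ± 0.00251 (SD, n = 3) of all counts in medium and 0.285% ± 0.0118 (SD, n = 3) in glutamate. For the 3 agents these shares lay between 0.0301% and 0.0340% in medium and between 0.302% and 0.312% in glutamate.

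Fosb, which encodes both the full-length FosB protein and the shorter, long-lived ΔFosB made by alternative splicing, rose most. In medium its level, in CPM (counts relative to the TMM-scaled library total), was 10.7, 1.82 and 1.69 in the DMSO libraries, 8.27, 9.48 and 12.2 with IS141, 4.03, 3.53 and 5.42 with AH609, and 2.19, 2.82 and 1.63 with AH236. In glutamate it was 673, 803 and 700 CPM with DMSO, 830, 837 and 778 with IS141, 919, 861 and 810 with AH609, and 778, 785 and 825 with AH236. The lowest glutamate library stood 55.0-fold above the highest medium library, and in medium 1 DMSO library lay with the IS141 libraries while the other 2 lay with those of AH236. Over all 4 treatments the log2 fold change was 7.43 ± 0.22 (SE; edgeR adjusted p = 1.68e-15), or 173-fold, and without DMSO medium replicate 1 it was 7.79 (221-fold). In DMSO cultures alone the rise was 154-fold with that library and 412-fold without it. The counts do not separate the splice forms.

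Fos, the founding member, followed. In medium it was at 20.7, 8.01 and 9.49 CPM in the DMSO libraries, 28.1, 29.0 and 35.7 with IS141, 19.5, 16.4 and 23.7 with AH609, and 13.8, 15.1 and 15.2 with AH236. In glutamate it was at 762, 814 and 745 CPM with DMSO, 872, 896 and 846 with IS141, 927, 908 and 856 with AH609, and 847, 823 and 881 with AH236. All 3 IS141 libraries in medium lay above every other medium library, DMSO medium replicate 1 included, and in glutamate every library with an agent lay above every DMSO library. The log2 fold change with glutamate was 5.52 ± 0.12 (SE; edgeR adjusted p = 2.28e-17) over all 4 treatments, or 46.0-fold (50.3-fold without DMSO medium replicate 1). In DMSO cultures alone the rise was 60.8-fold with that library and 88.0-fold without it.

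Junb, a Jun protein that activates transcription more weakly than Jun and can oppose it, rose 24.3-fold over all 4 treatments (log2 4.60 ± 0.07, SE; edgeR adjusted p = 7.26e-21). In medium it was at 29.3, 19.7 and 18.7 CPM with DMSO, 29.6, 29.5 and 36.01 with IS141, 19.1, 23.2 and 25.2 with AH609, and 16.4, 18.5 and 20.1 with AH236. In glutamate it was at 517, 547 and 494 CPM with DMSO, 509, 562 and 572 with IS141, 625, 585 and 587 with AH609, and 599, 564 and 642 with AH236. The IS141 libraries were the 3 highest in medium, and in glutamate the libraries of AH609 and AH236, but not those of IS141, lay wholly above those of DMSO.

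Jun, which binds DNA alone or with any Fos protein, rose 7.42-fold (log2 2.89 ± 0.08, SE; edgeR adjusted p = 5.18e-17). Its 12 medium libraries ran from 42.1 to 68.1 CPM with a median of 54.0, and its 12 glutamate libraries from 350 to 445 CPM with a median of 421. In medium the libraries of the 4 treatments lay among each other. DMSO medium replicate 1 was the highest of them, as it was of the DMSO libraries for Fos, Fosb, Junb and Fosl1.

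Jund, the Jun protein with a steady resting level, rose 3.25-fold (log2 1.70 ± 0.03, SE; edgeR adjusted p = 1.30e-24). In medium it was at 146, 159 and 152 CPM with DMSO, 174, 170 and 188 with IS141, 164, 174 and 196 with AH609, and 183, 190 and 193 with AH236. In glutamate it was at 512, 563 and 494 CPM with DMSO, 527, 574 and 552 with IS141, 594, 575 and 514 with AH609, and 622, 607 and 659 with AH236. DMSO libraries were lowest in medium, where they overlapped with no agent's libraries, and DMSO medium replicate 1 was the lowest of all, the reverse of its place for the other 5 members. In glutamate the libraries of AH236 were the 3 highest.

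Fosl1, which encodes Fra-1, rose least, by 2.05-fold (log2 1.03 ± 0.04, SE; edgeR adjusted p = 4.57e-19). Its 12 medium libraries ran from 8.33 to 10.9 CPM with a median of 9.25, and its 12 glutamate libraries from 16.4 to 21.1 CPM with a median of 19.3. The medium and glutamate libraries did not overlap, and the lowest glutamate library stood 1.50-fold above the highest medium library. How many of all genes show no such overlap was not taken.

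**Figure D1:**
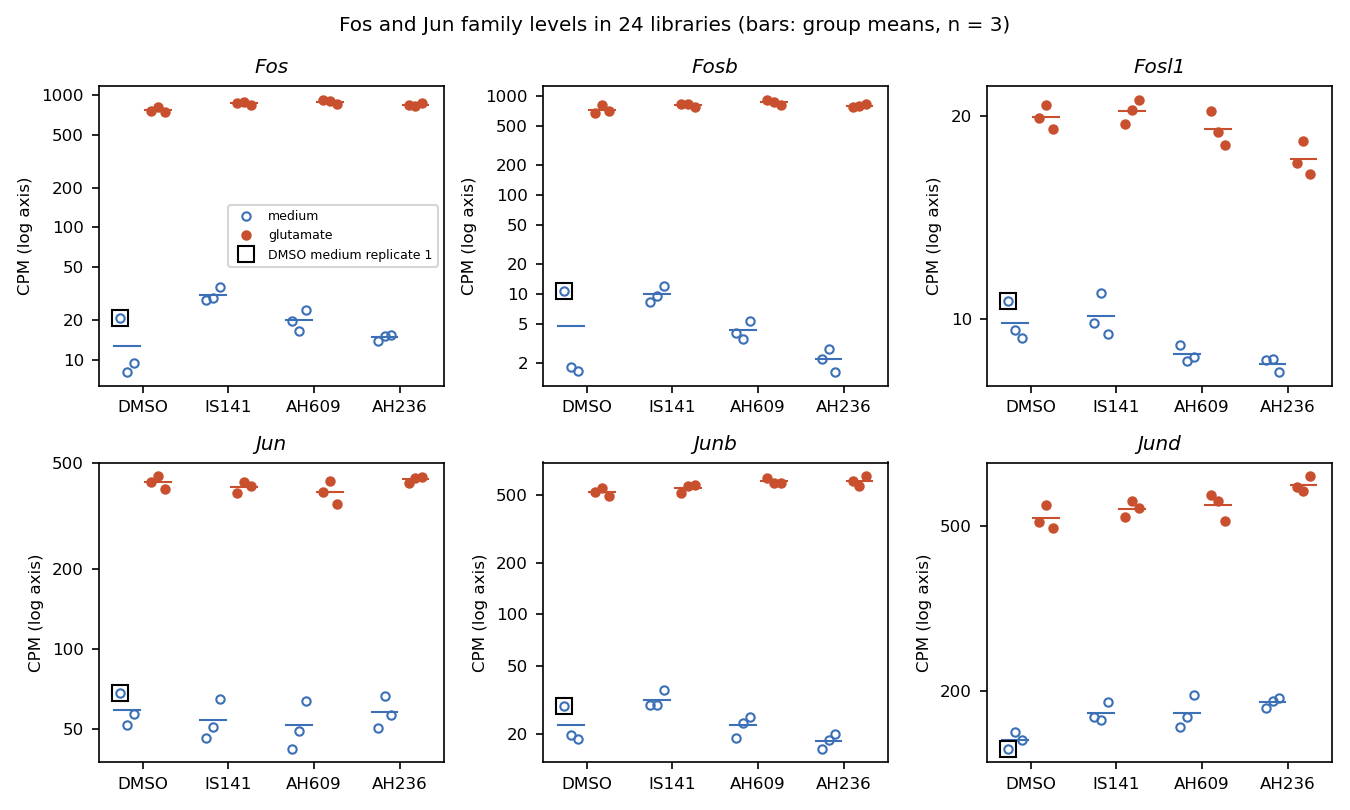
Level of each member in CPM on a log axis (each panel has its own range) in all 24 libraries, by treatment, with open points for medium, filled points for glutamate and a bar at each group's mean (n = 3). For every member all 12 glutamate points lie above all 12 medium points. The share of all genes separated in this way was not taken, so this does not set the members apart. The boxed point is DMSO medium replicate 1, whose Fosb level of 10.7 CPM lies far from the 1.82 and 1.69 CPM of its group.

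The order of the fold changes was Fosb, Fos, Junb, Jun, Jund and Fosl1 in each of the 4 treatments. Over all 4 treatments the 95% intervals of neighbours in this order did not overlap: on the log2 scale they ran from 6.97 to 7.90 for Fosb, 5.26 to 5.78 for Fos, 4.45 to 4.75 for Junb, 2.73 to 3.05 for Jun, 1.64 to 1.77 for Jund and 0.96 to 1.11 for Fosl1. Within single treatments the intervals of some neighbours overlapped, and the differences between members were not tested. In DMSO cultures the interval of Fosb (6.35 to 8.18) overlapped that of Fos (5.39 to 6.46), and the interval of Fos overlapped that of Junb with IS141 (4.32 to 5.32 and 3.81 to 4.41), AH609 (4.98 to 6.02 and 4.42 to 5.04) and AH236 (5.32 to 6.38 and 4.72 to 5.35). Among the 12289 genes with an average of at least 1 log2 CPM in the fit, ranked by their rise over all 4 treatments, Fosb was number 1, Fos 9, Junb 25, Jun 126, Jund 369 and Fosl1 798.

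These fold changes use TMM scaling. With library totals in its place, the all-gene median over the 4 treatments was -0.19 (log2). The members' log2 fold changes were then 7.25 for Fosb, 5.33 for Fos, 4.41 for Junb, 2.703 for Jun, 1.51 for Jund and 0.85 for Fosl1, which is 1.03 above that median for Fosl1. All 6 were still called, but Fosl1 was then under 2-fold. Within single treatments Fosl1 lay close to 2-fold (log2 1.01 to 1.11). It was under it in AH236 cultures when the title number was a block (0.99) and when no filter was used (0.98). Leaving out 1 library took it as low as 0.96 in AH236 (without AH236 glutamate replicate 2), 0.97 in DMSO (without DMSO medium replicate 3) and 0.96 in IS141 cultures (without IS141 medium replicate 3).

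**Figure D2:**
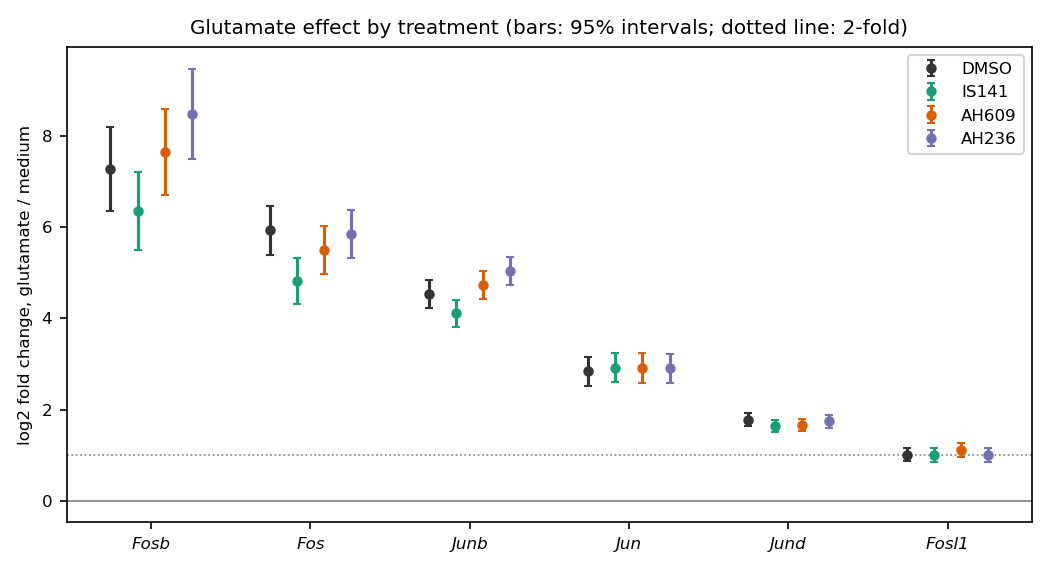
Log2 fold change of glutamate over medium for each member in DMSO, IS141, AH609 and AH236 cultures, with 95% intervals from the edgeR fit of all 24 libraries and a dotted line at 2-fold. The members fall in the same order in each treatment, from Fosb between 6.35 and 8.48 to Fosl1 between 1.01 and 1.11.

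The size of the rise in Fosb, Fos and Junb differed between treatments in value, but no difference from DMSO was called with all libraries. Fosb rose by 7.26 ± 0.43 on the log2 scale (SE) in DMSO cultures, 6.35 ± 0.41 with IS141, 7.64 ± 0.44 with AH609 and 8.48 ± 0.47 with AH236. Fos rose by 5.93 ± 0.25, 4.82 ± 0.24, 5.50 ± 0.25 and 5.85 ± 0.25 in the same order, and Junb by 4.52 ± 0.15, 4.11 ± 0.14, 4.73 ± 0.15 and 5.03 ± 0.15. Without DMSO medium replicate 1 the DMSO values were 8.69 for Fosb, 6.46 for Fos and 4.75 for Junb, and those of Fosb and Fos were then the highest of the 4 treatments. The rises of Jun (2.84 to 2.91), Jund (1.64 to 1.78) and Fosl1 (1.01 to 1.11) lay close together in the 4 treatments.

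Tests of the difference between an agent's glutamate effect and that of DMSO (edgeR) called 0 of 6 members for IS141, where 0.779% of all genes were called, 0 for AH609 (0.0251%) and 0 for AH236 (1.55%). DESeq2 also called 0 in each, and 2, 0 and 1 members had an unadjusted p under 0.05, as had 9.93%, 7.24% and 14.4% of all genes. The lowest p was that of Fos with IS141, at -1.11 ± 0.30 (SE; edgeR adjusted p = 0.121, 95% interval -1.75 to -0.47), and the largest difference was that of Fosb with AH236, at 1.22 ± 0.61 (adjusted p = 0.380, -0.07 to 2.50). That Fosb difference changed sign, to -0.21, without DMSO medium replicate 1 (edgeR adjusted p = 0.823). Fosb with AH609 went from 0.37 to -1.05 (adjusted p = 0.102). Leaving that library out lowers the DMSO level of Fos and Fosb in medium, and it was chosen partly on those values. P-values without it are therefore not an independent test. Without DMSO medium replicate 1, 3 of 6 members were called for IS141, where 4.6% of all genes were. The rise was smaller than in DMSO for all 3, with log2 differences of -1.65 for Fos (edgeR adjusted p = 2.38e-06), -2.34 for Fosb (adjusted p = 2.91e-05) and -0.65 for Junb (adjusted p = 0.00651). For AH609, 1 member was called without that library (1.33% of all genes), Fos at -0.97 (adjusted p = 0.00317), and for AH236 also 1 (3.08%), Fos at -0.61 (adjusted p = 0.0445). Levels in medium are given in the next comparison. In glutamate the mean CPM of Fos, Fosb and Junb was not lower with any agent than with DMSO, though single libraries of Fosb and Junb overlapped. What lies behind the differences was not tested.

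Each agent was next compared with DMSO in medium, without glutamate. With IS141, 3 of 6 members were called, all higher, where 7.98% of all genes were called. Fos was 2.43-fold higher (log2 1.28 ± 0.23, SE; edgeR adjusted p = 0.00232), with all 3 IS141 libraries above all 3 DMSO libraries. Junb was 1.40-fold higher (0.49 ± 0.14; adjusted p = 0.0337) and Jund 1.16-fold (0.22 ± 0.06; adjusted p = 0.0356). Fosb differed by 1.08 ± 0.43 (adjusted p = 0.149), with 2 of 3 DMSO libraries far below the IS141 range and the other within it. Jun (95% interval -0.44 to 0.17) and Fosl1 (-0.12 to 0.19) were not called.

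The Junb and Jund calls depended on single libraries and on the fit. The Fos call held whichever compared library was left out (log2 1.04 to 1.82), and among the other alternatives it was lost only with the compared groups alone. Without DMSO medium replicate 1 the log2 difference of Fosb was 2.50 (5.68-fold; edgeR adjusted p = 1.02e-06), that of Fos 1.82 (3.52-fold; adjusted p = 1.54e-08) and that of Junb 0.72 (adjusted p = 0.000107), while Jund was lost (0.19; adjusted p = 0.0815); 3 of 6 members were then called, against 12% of all genes. As above, p-values without DMSO medium replicate 1 are not an independent test, since it was chosen partly on its Fos and Fosb values. When only the DMSO and IS141 medium libraries were fitted, 0 members were called, and the edgeR adjusted p was 0.239 for Fos, 0.287 for Junb and 0.164 for Jund. The Junb call was also lost with the title number as a block (adjusted p = 0.0513) and with no filter (0.0639), and without DMSO medium replicate 2 or 3 or IS141 medium replicate 2 or 3 (0.0659 to 0.145). The Jund call was lost without any 1 of 5 of the 6 compared libraries (0.0576 to 0.171), DMSO medium replicate 2 being the exception.

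With AH609 in medium, edgeR called 0 of 6 members, where 3.06% of all genes were called, DESeq2 called 1, and 2 had an unadjusted p under 0.05 (16.1% of all genes). The nearest were Jund (log2 0.22 ± 0.06, SE; edgeR adjusted p = 0.057) and Fos (0.64 ± 0.24; adjusted p = 0.173). Without DMSO medium replicate 1, 2 of 6 were called, against 6.22% of all genes: Fos at 1.18 (2.26-fold; adjusted p = 1.31e-05) and Fosb at 1.303 (2.47-fold; adjusted p = 0.00523), where Fosb had been at -0.12 with that library. Without AH609 medium replicate 1 or DMSO medium replicate 2, 1 of 6 was called, but the share of all genes called in those fits was not taken. With AH236 in medium 1 of 6 was called, where 10.5% of all genes were: Jund, 1.24-fold higher (0.31 ± 0.06; adjusted p = 0.00275), with all 3 libraries above all 3 of DMSO. The call of Jund was lost when the AH236 and DMSO medium libraries were fitted alone (adjusted p = 0.0631). Fosb was at -1.08 ± 0.52 (adjusted p = 0.214), at -1.51 and called without DMSO medium replicate 3 (adjusted p = 0.0426), and at 0.34 without DMSO medium replicate 1. Without the latter 2 of 6 were called, against 8.72% of all genes, Fos at 0.75 (1.68-fold, edgeR adjusted p = 0.00115) and Jund at 0.27 (edgeR adjusted p = 0.0112). Here too, p-values without DMSO medium replicate 1 are not an independent test.

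**Figure D3:**
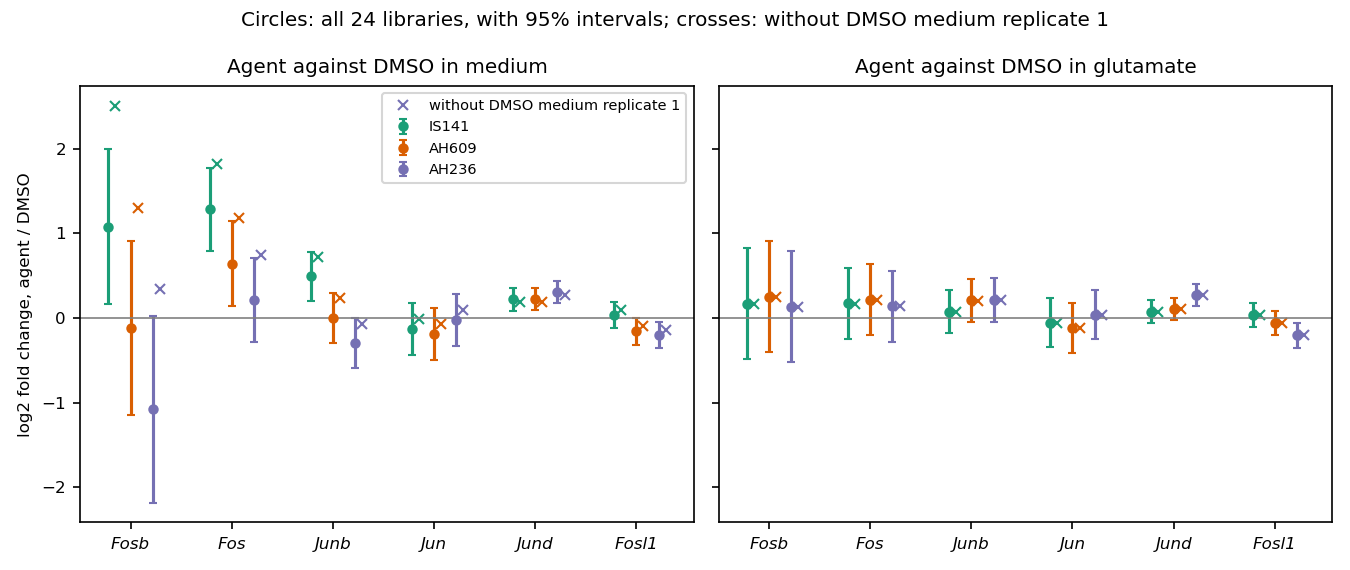
Log2 fold change of each agent over DMSO for each member, in medium (left) and in glutamate (right), with circles and 95% intervals from the fit of all 24 libraries and crosses for the fit without DMSO medium replicate 1. In medium the crosses of Fosb and Fos lie above the circles (for Fosb with AH236 at 0.34 against -1.08), and in glutamate circles and crosses nearly coincide.

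In glutamate few differences of the agents from DMSO were called in these genes, though some intervals were wide. Here 0 of 6 members were called with IS141 (8.46% of all genes) and 0 with AH609 (2.62%), with 0 by DESeq2 and 0 at an unadjusted p under 0.05 in both (23.5% and 15.5% of all genes). With AH236 1 of 6 was called (10.3% of all genes), Jund, 1.20-fold higher at 0.27 ± 0.06 (SE; edgeR adjusted p = 0.0078), which was lost without AH236 glutamate replicate 3 (adjusted p = 0.0583). Fos was higher in all 9 agent libraries than in all 3 DMSO libraries, but its log2 differences were 0.17 with IS141 (95% interval -0.25 to 0.59), 0.21 with AH609 (-0.21 to 0.63) and 0.14 with AH236 (-0.28 to 0.56), and none was called. For Fosb they were 0.17 (-0.49 to 0.82), 0.25 (-0.40 to 0.91) and 0.13 (-0.52 to 0.79), and for Junb 0.08 (-0.18 to 0.33), 0.21 (-0.05 to 0.46) and 0.21 (-0.05 to 0.47).

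Those intervals take their width from the spread of all 24 libraries. With only the compared groups fitted, Fos was called with IS141 (edgeR adjusted p = 0.0409), Fos, Fosb and Junb with AH609 (0.0268, 0.0343 and 0.0344), and Junb beside Jund with AH236 (0.0218 and 0.00478), at log2 differences between 0.18 and 0.25. The share of all genes called in those fits was not taken. Fosl1 went the other way with AH236, at -0.21 ± 0.07 (SE; adjusted p = 0.0596, called without DMSO medium replicate 1 at 0.0332, with the title number as a block at 0.0468 and with library totals at 0.0132). The 3 comparisons share the DMSO glutamate libraries.

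The agents were also set against each other, with 3 pairs in each medium and no dose given for any of them, so the doses may not match. DMSO libraries are in neither arm of these comparisons and enter through the shared spread, scaling and filter. In medium IS141 exceeded AH236 in 3 of 6 members (7.86% of all genes called). Fosb was 4.47-fold higher (log2 2.16 ± 0.48, SE; edgeR adjusted p = 0.011), Fos 2.10-fold (1.07 ± 0.23; adjusted p = 0.00814) and Junb 1.73-fold (0.79 ± 0.14; adjusted p = 0.00178). In each of these genes all 3 IS141 libraries lay above all 3 AH236 libraries. Fitted with those groups alone, all 3 calls held, at adjusted p = 2.12e-05, 1.55e-06 and 4.28e-05. The Fosb call was lost without AH236 medium replicate 1 or 3 (0.0514 and 0.0602). Fosl1, at 0.23 (adjusted p = 0.058), was called as a 4th member with library totals (0.0268) and without DMSO medium replicate 1 (0.0342, against 14.4% of all genes).

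IS141 against AH609 in medium gave 0 calls among 6 members with edgeR (1.13% of all genes) and 1 with DESeq2, and 4 had an unadjusted p under 0.05 (14.3% of all genes). The log2 differences were 1.20 for Fosb (95% interval 0.26 to 2.15; adjusted p = 0.224), 0.64 for Fos (0.17 to 1.11; adjusted p = 0.191) and 0.49 for Junb (0.20 to 0.78; adjusted p = 0.0889). All 3 were called without DMSO medium replicate 1 (0.000866, 0.0017 and 0.00574, against 4.89% of all genes), at unchanged log2 differences of 1.20, 0.64 and 0.49. That library is in neither arm and was left out partly for its Fos and Fosb values. P-values without it are therefore not an independent test for these genes. Fosb and Junb were also called when the 2 groups were fitted alone (0.00537 and 0.0371). AH609 against AH236 in medium gave 0 calls (0.0503% of all genes; 0 with DESeq2, 1 at an unadjusted p under 0.05, as for 6.29% of all genes), with 0.96 for Fosb (-0.18 to 2.10), called without DMSO medium replicate 1 (0.0345, against 1.59% of all genes) and when the 2 groups were fitted alone (0.0306).

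In glutamate IS141 against AH609 gave 0 calls among the members and 0% among all genes (0 members with DESeq2 or at an unadjusted p under 0.05, which 10% of all genes had). IS141 against AH236 gave 1 (8.64% of all genes), Fosl1, which was 1.18-fold higher with IS141 (0.24 ± 0.07, SE; edgeR adjusted p = 0.0323). That call was lost without any of 4 of the 6 compared libraries (0.0932 to 0.167). AH609 against AH236 gave 0 (0.742% of all genes; 0 with DESeq2, 2 at an unadjusted p under 0.05, as for 11.7% of all genes). For Fos the intervals of the 3 pairs in glutamate ran from -0.46 to 0.49, and for Junb from -0.39 to 0.25.

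Some members varied together within groups and others did not. Over 24 libraries, each taken as its deviation from its group's mean log2 CPM, Pearson's r was 0.93 for Fos and Fosb, 0.80 for Fos and Junb, 0.74 for Fosb and Junb and 0.74 for Jun and Junb. DMSO medium replicate 1 carried part of this, and without it the same 4 values were 0.63, 0.51, 0.31 and 0.73. Jund stood apart from Fos in medium (r = -0.03 over 12 libraries) and went with it in glutamate (0.91 over 12 libraries), and without DMSO medium replicate 1 its r with Fos over 23 libraries was 0.63. Fosb and Jund gave -0.03 over 24 libraries and 0.51 without it. Fosl1 gave 0.34 with Fos, 0.45 with Fosb, 0.09 with Jun, 0.16 with Junb and -0.07 with Jund over 24 libraries, and -0.14, 0.10, -0.09, -0.26 and 0.04 in the same order without it. These values describe libraries that share scaling and group means, and carry no test.

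**Figure D4:**
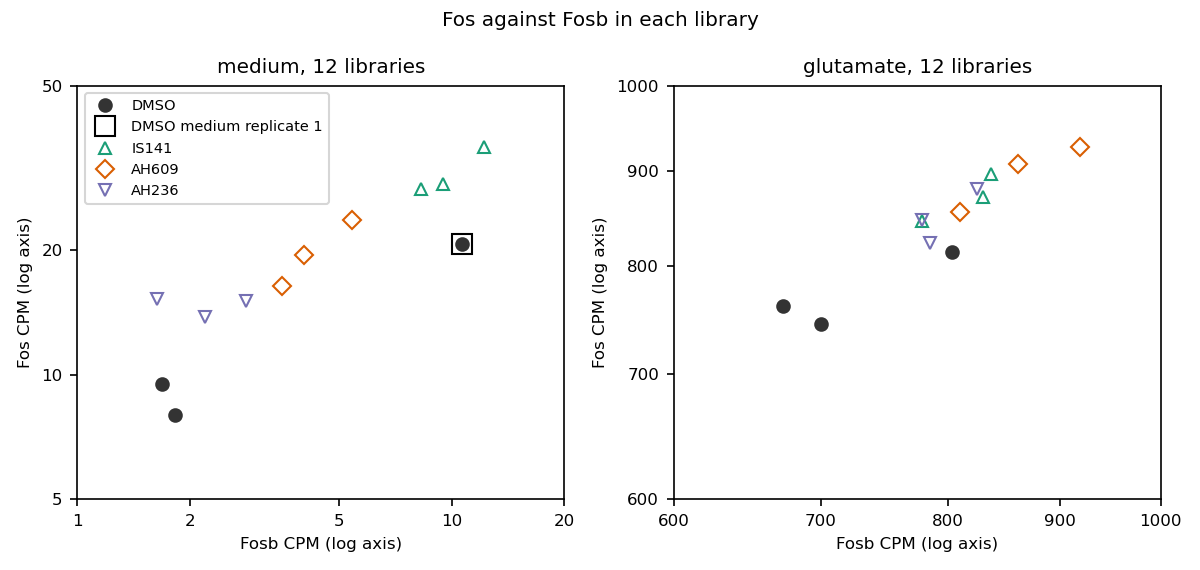
Fos against Fosb in CPM on log axes in the 12 medium libraries (left) and the 12 glutamate libraries (right), with 1 symbol per treatment. In medium the 3 IS141 libraries lie highest for Fos, and the boxed DMSO medium replicate 1 shows Fosb within the IS141 range (10.7 CPM) with Fos below it (20.7 CPM).

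Over all 24 libraries the log2 CPM of the members rose and fell with that of many other genes that glutamate raised. For each member the 2 other genes with the highest Pearson r were sought among 12169 genes whose mean log2 CPM was 1 or more. They were 11 different genes, all called higher in glutamate over all 4 treatments, with r between 0.986 and 0.999. ENSRNOG00000003977 was the closest to Fos (r = 0.999) and rose by 3.46 ± 0.09 on the log2 scale (SE; edgeR adjusted p = 7.41e-17). ENSRNOG00000016299 was among the 2 closest to both Fos and Fosb (r = 0.998 for each), and went from between 1.47 and 5.28 CPM in medium to between 64.8 and 85.1 CPM in glutamate. Without DMSO medium replicate 1 it was no longer among the 2 closest to Fosb. With glutamate separating the libraries so widely, r measures mainly that contrast.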

How the data were processed

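Directional NEBNext Ultra II libraries were made from RNeasy Mini Kit RNA, per the labels' protocols. The deposited table holds raw counts as whole numbers for 24 libraries, by Ensembl rat gene ID. The submitters' processing notes name bcl2fastq, cutadapt 2.3, FastQC 0.11.8, STAR 2.7.8a, RSEM 1.3.3 and the build Rnor_6.0. What each did, the annotation and any strand option are not stated there, so counts of overlapping or antisense genes are uncertain, and whole numbers may be rounded RSEM estimates.

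Groups came from sample titles. Unnumbered titles are replicate 1, and the later of the AH236 glutamate libraries numbered 2 is called replicate 3. The 6 members were matched by ID. The members, gene lists, tests and the alternative without DMSO medium replicate 1 were chosen with earlier results of these data known. Lists of AP-1 partners, regulators, regulated genes, other immediate early genes and cell type markers could not be applied, because 0 IDs were paired with symbols by the RefSeq table, and gave no result. The rule for named genes took all 6 members and the 2 genes most like each.

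Tests used edgeR 4.0.16 under R 4.3.3 (filterByExpr, TMM, robust quasi-likelihood F test, 1 mean per group, all 24 libraries, 20 comparisons, adjustment over 15908 genes), and the code was tested on simulated data. Standard errors were derived from the log2 fold change and the F statistic. Log2 CPM used a prior count of 2. Alternatives were DESeq2 1.42.0, RLE, library totals, no filter, the compared groups alone, the title number as a block, and leaving out libraries. Levels of different genes were not compared, because no transcript lengths were used.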

Additional observations from a re-analysis of the deposited data

How the results depend on the processing

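All 6 members were called higher in each of the 5 glutamate comparisons under every alternative run, leaving out single libraries included. For the agents, counts of members called, out of 6, moved as follows. Shares of all genes called are given for the shared fit and the fit without DMSO medium replicate 1, and numbers of genes called for the block. Counts from the other fits cannot be set against such a share. With the compared groups alone they were 0 for IS141 and 0 for AH236 against DMSO in medium (3 and 1 in the shared fit), 1, 3 and 2 for IS141, AH609 and AH236 against DMSO in glutamate (0, 0 and 1), 2 for IS141 against AH609 and 1 for AH609 against AH236 in medium (0 and 0), and 2 for IS141 against AH236 in glutamate (1). With DESeq2 they were 1 for AH609 against DMSO in medium, 1 for IS141 against AH609 in medium and 2 for IS141 against AH236 in glutamate. With no filter AH609 against DMSO in medium gave 1. With library totals AH236 against DMSO gave 2 in medium and 2 in glutamate (in each, Jund higher and Fosl1 lower), and IS141 against AH236 in medium gave 4 (3 in the shared fit), as it did without DMSO medium replicate 1. With a replicate block on the title number AH236 against DMSO in glutamate gave 2, where 1388 of all genes were called (1633 in the shared fit). Junb with IS141 against DMSO in medium was lost (0.49, edgeR adjusted p = 0.0513), where 1203 of all genes were called (1269 in the shared fit). Fosl1 with AH236 in glutamate was gained (-0.23, edgeR adjusted p = 0.0468), and no other member's call changed among those printed. The block does not mark a known pairing: deviations of same-numbered libraries correlated with a median of 0.00, and 6 of 24 libraries correlated best with their own number.

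With 1 library left out, counts ranged from 1 to 3 for IS141, 0 to 2 for AH609 and 1 to 2 for AH236 against DMSO in medium, from 0 to 2 for AH236 against DMSO in glutamate, from 0 to 3, 0 to 1 and 0 to 1 for the differences of the glutamate effect with IS141, AH609 and AH236, from 0 to 3 for IS141 against AH609 0 to 1 for AH609 against AH236 and 2 to 4 for IS141 against AH236 in medium, and from 0 to 2 for IS141 against AH236 in glutamate. Fosb against DMSO in medium changed sign without DMSO medium replicate 1, to 0.34 for AH236 and 1.303 for AH609, and for AH609 also without AH609 medium replicate 2, to 0.01; leaving out 1 library it ranged from -1.51 to 0.34 and from -0.55 to 1.303. The cause was not tested. Where a library left out leaves 2 in its group, the spread of the other groups is assumed for it. The lowest count behind a value was 51 (Fosb in medium), and how far depth limits that gene was not tested.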
